A study of Mus musculus with 4 samples.

Results

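The MHC class I processing genes are 9 genes whose products cut intracellular proteins into peptides and display them at the cell surface. They are the heavy chains H2-K1 and H2-D1, the peptide transporter subunits Tap1 and Tap2, the loading chaperone Tapbp, the immunoproteasome subunits Psmb8, Psmb9 and Psmb10, and the transactivator Nlrc5. Every probe whose target accession maps to 1 of these symbols was taken, which gave 11 probes among the 39429 on the array, and all 9 genes were among the 25679 genes tested. That total includes unnamed targets, since a probe without a matched symbol was counted as a gene under its target name. RNA of dissected mouse middle ears was hybridised to 4 two-colour arrays. On each array the Cy5 (red) channel held an extract named DEP_ear, from an ear exposed to diesel exhaust particles (DEPs). The Cy3 (green) channel held one named CON_ear, taken by that name as the control. In the experiment, 9 male BALB/c mice aged 6 to 10 weeks were used. DEPs were inhaled for 1 h a day over 5 days, and areas of temporal bone with the middle ear were taken on day 14. What the control mice inhaled and how many mice stood behind an extract are not given in the sources used here, and the labels name the arrays as biological replicates.

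Class I molecules carry peptides that report what a cell is making, and CD8 T cells read them. Proteins are first cut by the proteasome. Under interferon gamma, the immunoproteasome subunits Psmb8, Psmb9 and Psmb10 replace the standard catalytic subunits Psmb5, Psmb6 and Psmb7, in that order, in newly built particles, which favours peptides that suit the class I groove. The transporter formed by Tap1 and Tap2 moves peptides into the endoplasmic reticulum, where Tapbp (tapasin) bridges it to the empty heavy chain and its partner B2m (beta-2 microglobulin). Nlrc5 is a nuclear protein without a DNA-binding domain of its own that switches on class I genes through factors bound to their promoters. It is a relative of Ciita, which does the same for class II genes. In the middle ear, a space lined by mucosal epithelium that connects to the airway, this pathway is part of the defence against viruses.

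The genes lie close together. Tapbp, H2-K1, Psmb9, Tap1, Psmb8, Tap2 and H2-D1 are on mouse chromosome 17, in that order in the annotation, and Psmb9, Tap1, Psmb8 and Tap2 are neighbours within the class II region. Nlrc5 and Psmb10 are on chromosome 8. Upstream sequences from RefSeq (GRCm38.p6) were found for 7 of the 9 genes, in 8 windows of 250 bases before the start. Nlrc5 and Tap2 were not matched. The 3 sequences below are shown because class I genes share promoter elements, and because the H2-K1 and H2-D1 windows are near copies of each other. Capitals mark matches by letters alone, on either strand. The elements are the X2 box TGACG, the Y box CCAAT, the enhancer A element GGGANTCCC, the interferon response core GAANNGAAA and the Sp1 site GGGCGG. Nlrc5 acts through X2 and Y boxes, and whether it acts at these matches was not tested. In H2-K1 and H2-D1 the X2 match comes before the Y match. In Tap1 the order is turned, with the Y match 222 bases and the X2 match 86 bases before the start. The sequences are H2-K1 (chr17:34000348-34000597, minus strand), H2-D1 (chr17:35262844-35263093, plus strand) and Tap1 (chr17:34187306-34187555, plus strand).
H2-K1: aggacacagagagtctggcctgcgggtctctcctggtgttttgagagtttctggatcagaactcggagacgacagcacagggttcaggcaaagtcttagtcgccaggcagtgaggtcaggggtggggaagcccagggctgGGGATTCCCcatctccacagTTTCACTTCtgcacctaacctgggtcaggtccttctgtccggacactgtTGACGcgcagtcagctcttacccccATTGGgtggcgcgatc
H2-D1: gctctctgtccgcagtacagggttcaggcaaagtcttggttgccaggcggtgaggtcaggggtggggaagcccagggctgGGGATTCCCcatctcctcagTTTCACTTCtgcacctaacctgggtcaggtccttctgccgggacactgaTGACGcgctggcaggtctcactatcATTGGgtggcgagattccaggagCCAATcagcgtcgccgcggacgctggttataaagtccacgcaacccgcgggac
Tap1: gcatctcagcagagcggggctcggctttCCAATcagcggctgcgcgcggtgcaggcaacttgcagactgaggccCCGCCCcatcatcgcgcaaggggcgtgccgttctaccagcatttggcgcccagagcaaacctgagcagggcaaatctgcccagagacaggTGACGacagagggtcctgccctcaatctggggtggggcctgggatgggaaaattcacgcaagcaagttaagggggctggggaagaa

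Without gaps, 166 of 190 bases of the H2-K1 and H2-D1 windows were equal when aligned (87.4%). Enhancer A was matched in H2-K1 and H2-D1 and in 0.636% of the 32851 promoter windows. The X2 box was matched in H2-K1, H2-D1, Tap1 and Psmb9, against 17.8% of all windows, and the Y box in these and in Tapbp, against 33.8%. The Sp1 site was matched in Tap1, Psmb9 and Tapbp, against 32.7% of windows. A gamma-activated site, TTCNNNGAA, was matched in Psmb8, against 7.02%. The interferon core in the order GAAANNGAA was matched in 0 members, against 7.13% of windows. The reverse order, GAANNGAAA, was added after the sequences were read and was matched in H2-K1 and H2-D1, against 6.31%. Tap1 and Psmb9 are read in opposite directions from starts 225 bases apart, so their windows overlap. The reference is a C57BL/6 genome, whose class I alleles differ from those of BALB/c mice. The windows compared lie upstream of the start, and neither transcripts nor probe sequences were compared. Because the class I genes are related, the H2-K1 and H2-D1 probes may also bind RNA of other class I genes, which was not tested.

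All values below are log2 ratios of the Cy5 over the Cy3 processed signal on 1 array, so a positive value means more signal in the channel labelled DEP. No array had its dyes swapped, so a dye preference of a transcript and the exposure cannot be told apart. The labels list both treatments under the red channel and none under the green, and the source names were followed. As the channels are named, Chrm1 had a mean ratio of -1.21 and Esr1 one of 0.46. The study's text describes these genes as having moved the other way, on its arrays and in its qRT-PCR. Cd4, which it reports as decreased by both methods, had a mean ratio of -0.10, the direction reported. Every direction given here thus rests on the source names alone. Ratios were tested against 0 with limma (two-sided), and p-values were adjusted by Benjamini-Hochberg across every probe tested.

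The arrays differed in how far the channels stood apart. The SD of the ratios over all probes was 0.97 on array 1 and 0.63 to 0.69 on the others, and the correlation between arrays over probes ran from -0.22 (arrays 1 and 4) to 0.61 (arrays 1 and 2). Between 59.2% and 68.9% of probes were well above background in a channel. Markers of mucosal epithelium fitted the labelled tissue, and Bpifa1, Foxj1 and Muc5b were above background on each of the 4 arrays in both dyes. Markers of skeletal muscle, marrow and red cells, bone, and neurons were above background too. In such bulk extracts, fewer cells of a type and less RNA per cell cannot be told apart.

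None of the 9 genes passed the test, and none had a mean ratio past 2-fold. The mean was above 0 for 6 genes and below 0 for 3, with a median of 0.13 against 0.03 over all genes tested, and it ranged from -0.25 (Psmb10) to 0.69 (Nlrc5). The median of the 9 was 0.06 without array 3, 0.04 without array 4 and 0.44 with normexp and median centring, where that of all genes was 0.12. By array, the median of the 9 genes was 0.15, -0.0043, 0.24 and 0.04, and 5, 4, 5 and 6 of them were above 0. The 9 brightest probes, 1 for each gene, cleared the background in Cy5 and in Cy3 on every array, and none of their spots was saturated, so their ratios were measured values and not bounds. The median size of the mean ratio, sign ignored, was 0.15 for the 9 genes and 0.18 for the 18349 genes measured as fully.

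The counts are read against all 25679 genes, unnamed targets included. Past 2-fold, 0 members were higher, against 2.38% of all genes, and 0 were lower, against 4.37%. At an unadjusted p under 0.05, 0 members were higher (10.02% of all genes) and 0 lower (8.64%). Named genes alone, with the probes of each averaged, numbered 17962. In that fit 8.90% were higher and 7.69% lower at this limit, and 1 member was higher and 0 lower. With the same sign on all 4 arrays, 2 members, H2-D1 and Nlrc5, were higher (16.2% of all genes) and 1, Tap2, was lower (10.9%). After adjustment, limma called 0 members, as it called 0.0% of all genes, of which 2573 were higher and 2219 lower at an unadjusted p under 0.05. An exact sign-flip test of 4 ratios has 8 patterns and cannot give a two-sided p under 0.125.

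**Figure D1:**
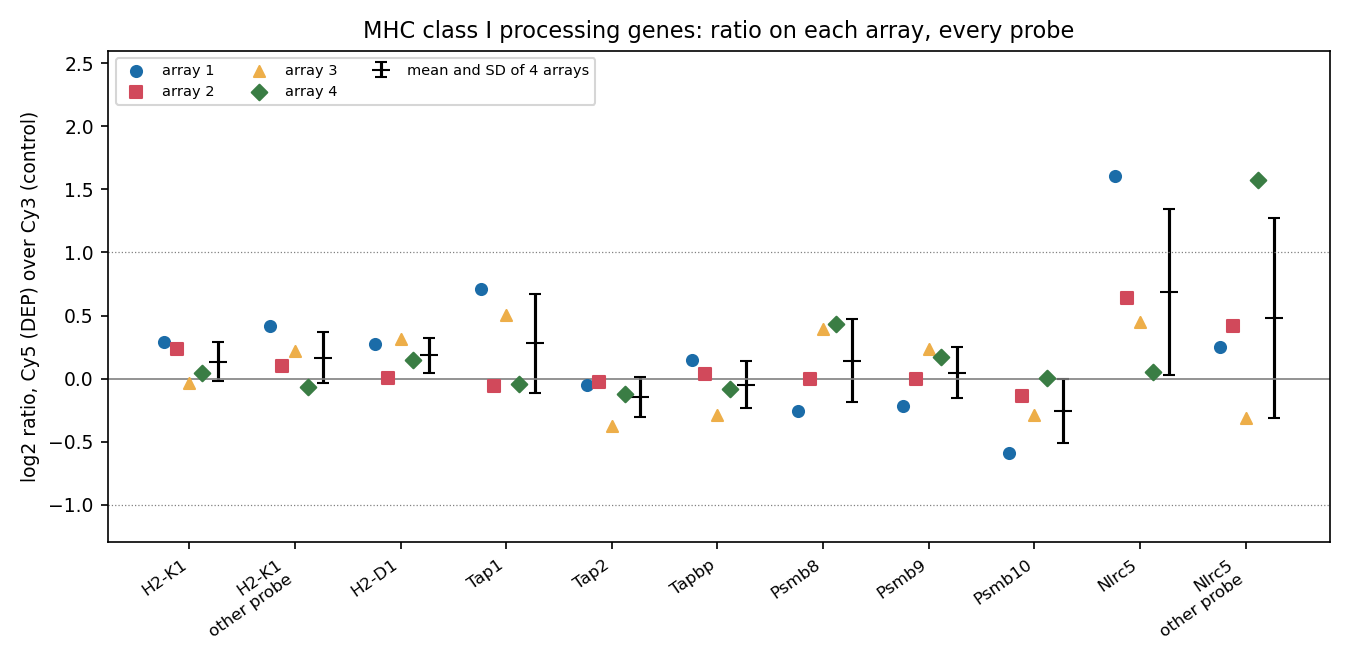
Log2 ratio of Cy5 (DEP) over Cy3 (control) for each of the 11 probes on each of 4 arrays (symbols), with the mean and SD (black), and dotted lines at 2-fold. Nlrc5 spread from 0.05 to 1.61, while the ratios of the other 8 genes lay between -0.59 and 0.71, and the other Nlrc5 probe was near background.

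The heavy chains H2-K1 and H2-D1 bind the peptide and are the molecules that T cells recognise. H2-K1 (probe A_51_P198434, 10 spots) had ratios of 0.29, 0.24, -0.04 and 0.04 on arrays 1 to 4. Its Cy5 signals were 21502, 16589, 13316 and 14333, against Cy3 signals of 17616, 14092, 13652 and 13899. Its channels were far apart on none of the arrays, and array 3 had the opposite sign to the others. The mean was 0.13 ± 0.15 (SD, n = 4), a 1.096-fold difference, with an adjusted p of 0.556 in limma, and it was 0.08 without array 1. The 10 spots of an array spread by an SD of 0.018 to 0.031, less than the arrays did. A second probe (A_55_P2049647) gave 0.41, 0.10, 0.22 and -0.07, a mean of 0.17 ± 0.20 (SD, n = 4; limma adjusted p = 0.504), with its negative value on array 4 rather than array 3.

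H2-D1 (A_65_P19395) had ratios of 0.27, 0.0060, 0.31 and 0.15. Its Cy5 signals were 28439, 19597, 17040 and 15650, and its Cy3 signals were 23539, 19516, 13702 and 14139. Every array was on the Cy5 side, though array 2 was close to 0. The mean was 0.18 ± 0.14 (SD, n = 4), with a 95% interval from -0.10 to 0.47 and an adjusted p of 0.413 in limma. In folds, the intervals of H2-K1 and H2-D1 ended at 1.34 and 1.39, so a 2-fold difference in either heavy chain lay outside them. These 2 genes depended on how the arrays were processed. With normexp and median centring, which replaced both the background step and the dye correction of the deposited ratios, they had ratios of 0.70 and 0.76 and limma adjusted p of 0.0335 and 0.0382. In that setting 11.6% of all genes were called, and the median ratio of the brightest decile of genes, which holds both, was 0.62.

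**Figure D2:**
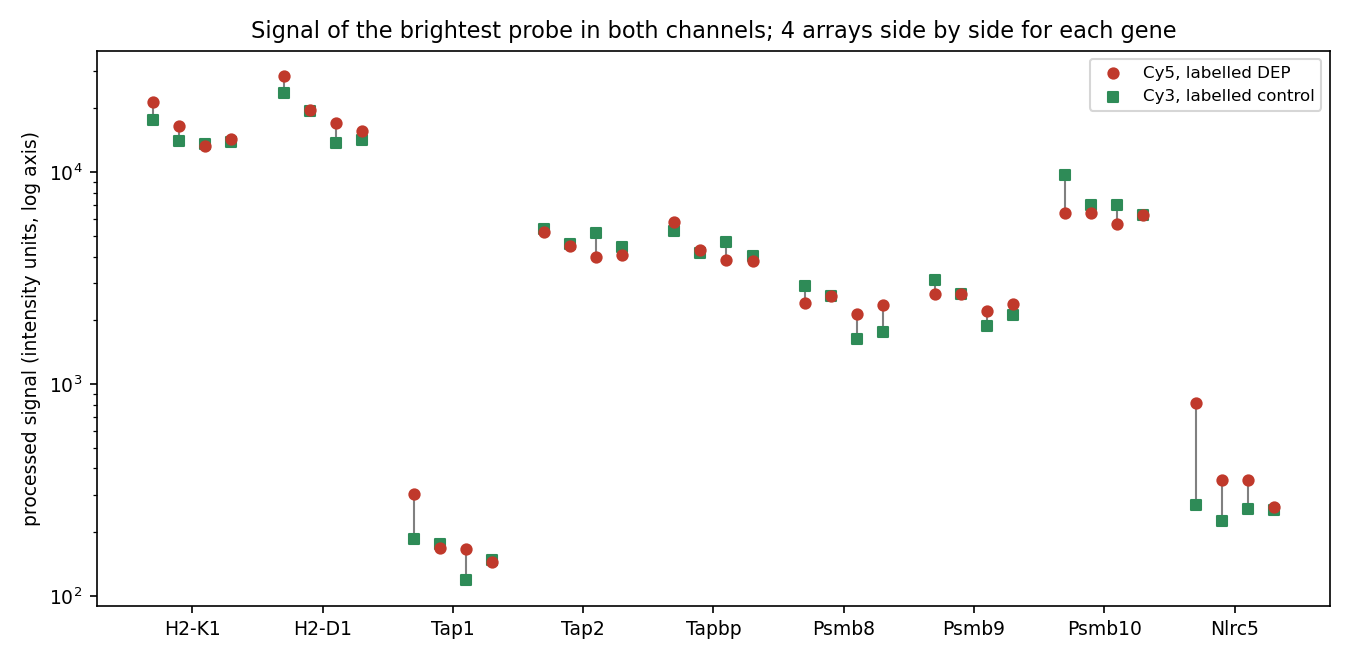
Processed signal, in intensity units on a log axis, of the brightest probe of each gene in Cy5 (red circles, DEP) and Cy3 (green squares, control), with arrays 1 to 4 from left to right and a line joining the channels of an array. The widest gap is that of Nlrc5 on array 1, 819 against 269, and levels of different genes are not comparable because each has its own probe.

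The transporter subunits had means of opposite sign. Tap1 (A_51_P100327, 10 spots) had ratios of 0.71, -0.06, 0.50 and -0.04. Its Cy5 signals were 304, 168, 168 and 144, against 185, 175, 118 and 148 in Cy3. Arrays 1 and 3 were higher in Cy5 and arrays 2 and 4 were near 0. The mean was 0.28 ± 0.39 (SD, n = 4; limma adjusted p = 0.443), and it was 0.13 without array 1 and 0.16 with normexp and loess. The SD between its spots on an array was 0.064 to 0.142, below the SD of 0.39 between arrays.

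Tap2 (A_55_P2017645) had ratios of -0.05, -0.03, -0.38 and -0.13. The signals were 5192, 4499, 3968 and 4083 in Cy5 and 5380, 4580, 5158 and 4455 in Cy3. It was lower in Cy5 on every array, and array 3 was the lowest. The mean was -0.15 ± 0.16 (SD, n = 4; limma adjusted p = 0.527), and it was -0.07 without array 3 and 0.25 with normexp and median centring. Tap1 minus Tap2 was 0.77, -0.04, 0.88 and 0.09 by array, so the pair, which acts as a heterodimer, stood apart on arrays 1 and 3.

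Tapbp (A_55_P2149763), which holds the heavy chain open for loading, had ratios of 0.15, 0.04, -0.29 and -0.08. In Cy5 its signals were 5836, 4282, 3831 and 3814, against 5278, 4173, 4689 and 4038 in Cy3. The sign was split between the arrays. The mean was -0.05 ± 0.19 (SD, n = 4; limma adjusted p = 0.847), was -0.11 without array 1 and 0.03 without array 3, and was -0.11 with normexp and loess and 0.32 with normexp and median centring.

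The immunoproteasome subunits did not share a sign. Psmb8 (A_51_P345367) had ratios of -0.26, -0.0043, 0.40 and 0.43, from Cy5 signals of 2426, 2607, 2141 and 2364 and Cy3 signals of 2898, 2615, 1628 and 1753. Psmb9 (A_51_P369803) had ratios of -0.22, -0.0063, 0.24 and 0.17, from Cy5 signals of 2673, 2655, 2203 and 2392 and Cy3 signals of 3108, 2667, 1871 and 2119. Both were lower in Cy5 on array 1, level on array 2, and higher on arrays 3 and 4. The means were 0.14 ± 0.33 for Psmb8 and 0.05 ± 0.20 for Psmb9 (SD, n = 4; limma adjusted p = 0.651 and 0.856). Psmb8 was 0.27 without array 1, 0.06 without array 3 and 0.04 without array 4. Psmb9 was 0.13, -0.02 and 0.0040 in these settings. With normexp and median centring they were 0.47 and 0.44, and Psmb9 was 0.08 with normexp and loess.

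Psmb10 (A_52_P570266) had ratios of -0.59, -0.14, -0.29 and 0.0021. Its Cy5 signals were 6440, 6384, 5724 and 6309, against 9694, 7032, 6999 and 6300 in Cy3. The lowest ratio came from array 1. With each channel centred on its own median, its log2 levels were 2.80, 3.22, 3.28 and 3.43 in Cy5 and 3.38, 3.34, 3.56 and 3.43 in Cy3, so that Cy5 was lowest on array 1 while Cy3 there lay within the range of the others. The mean of -0.25 ± 0.25 (SD, n = 4; limma adjusted p = 0.375) was the lowest of the 9 genes. Without array 1 it was -0.14, and Tap2 was then the lowest at -0.18. With normexp and loess in place of the deposited background step and dye correction it was -0.32, with an unadjusted p under 0.05, and with normexp and median centring it was 0.16.

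Each of these subunits displaces a standard one. Psmb8 minus Psmb5 was -0.75, -0.09, 0.19 and 0.46 by array, and Psmb9 minus Psmb6 was -0.52, 0.02, 0.13 and 0.30. Psmb10 minus Psmb7 was -0.67, 0.14, -0.45 and 0.11. The immune subunit was on the lower side of its partner on array 1 in all 3 pairs and on the higher side on array 4. Their own mean ratios were 0.19 for Psmb5, 0.07 for Psmb6 and -0.04 for Psmb7, and 0 of 3 had an unadjusted p under 0.05.

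Immunoproteasome subunits are built into the proteasomes of leukocytes at rest, so leukocyte markers were set beside them. The median ratio of 6 general leukocyte markers (Ptprc, Cd52, Laptm5, Coro1a, Cd53 and Itgb2) was -0.51, 0.02, 0.57 and 0.15 by array, and all 6 cleared the background in either dye on every array. Their summed signal was 26275 to 35643 in Cy5 but 19931 to 44990 in Cy3. Neutrophil markers gave medians of -1.14, 0.0067, 0.50 and 0.19, and B cell markers -0.46, 0.18, 0.42 and 0.12. Macrophage and dendritic cell markers gave -0.28, -0.02, 0.34 and 0.50, and T and NK cell markers -0.10, 0.13, 0.23 and 0.19. Of the CD8 markers, Cd8b1 was above background in either dye on all 4 arrays, and the brighter of the 2 Cd8a probes was so in neither dye on any array. The leukocyte medians, like Psmb8 and Psmb9, were lowest on array 1. So were those of erythroid (-1.01), skeletal muscle (-0.72), bone and cartilage (-0.39) and neuronal (-2.46) markers. Those of mucosal epithelium and endothelium were lowest on other arrays. The part of leukocyte content in the ratios was not tested. Nlrc5 and Tap1 were highest on array 1, where the leukocyte medians were lowest.

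**Figure D3:**
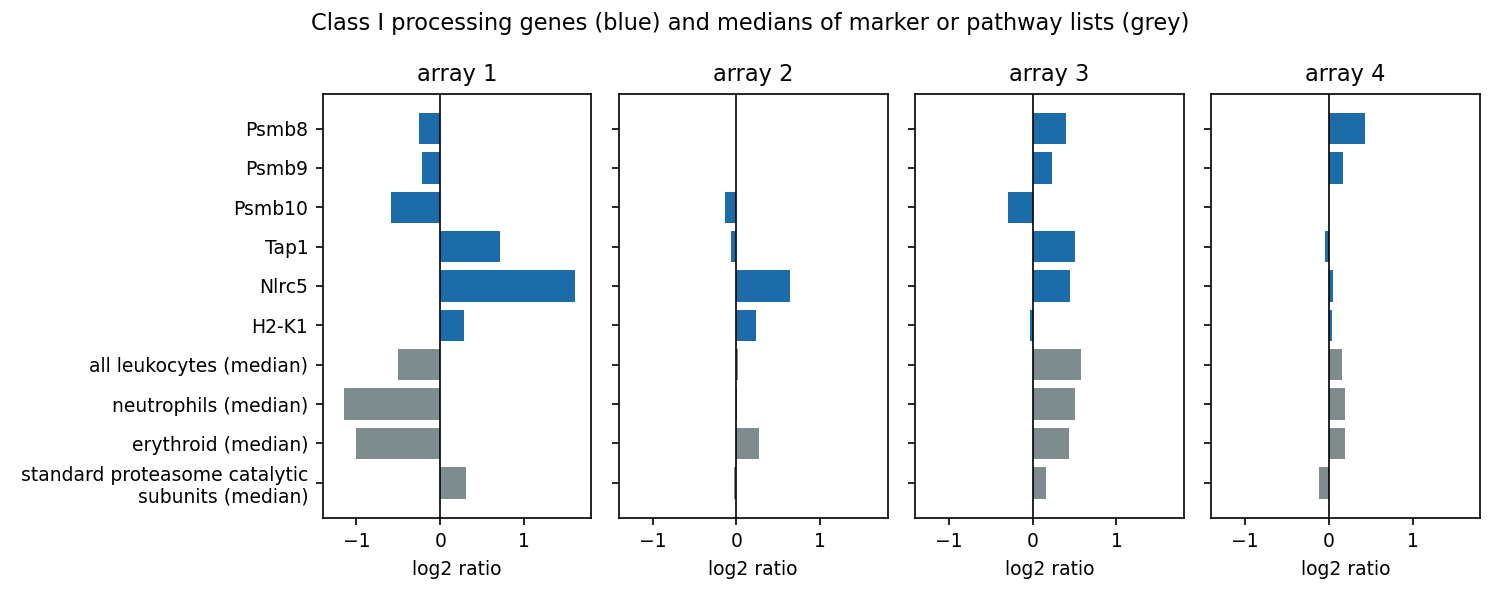
Log2 ratio on each array for 6 class I processing genes (blue) and the median ratio of 4 lists (grey). On array 1 Psmb8, Psmb9 and Psmb10 lie at -0.26, -0.22 and -0.59 beside a leukocyte median of -0.51, while Nlrc5 lies at 1.61. On array 3 the 3 subunits lie at 0.40, 0.24 and -0.29 beside a leukocyte median of 0.57.

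Nlrc5, the transactivator of the class I genes, had the largest mean ratio of the 9. Its brightest probe (A_55_P2016034) had ratios of 1.61, 0.64, 0.45 and 0.05. Its Cy5 signals were 819, 351, 351 and 264, and its Cy3 signals were 269, 225, 257 and 255. With each channel centred on its own median, its Cy5 levels were -0.18, -0.97, -0.75 and -1.15 (log2) and its Cy3 levels -1.79, -1.63, -1.20 and -1.20. Array 1 thus had the highest Cy5 level and the lowest Cy3 level of the 4. The mean was 0.69 ± 0.66 (SD, n = 4), a 1.61-fold difference with a 95% interval from 0.99-fold to 2.63-fold, and the limma adjusted p was 0.278. It was 0.38 without array 1 and 0.90 without array 4. It was 0.49 with normexp and loess. A second probe (A_66_P113043) cleared the background on 2 arrays in Cy5 and on 1 in Cy3, so no fold is given for it.

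The gap between Nlrc5 and a gene it controls varied between arrays. Nlrc5 minus H2-K1 was 1.32, 0.41, 0.49 and 0.0075. Tap1 minus Psmb9, whose starts face each other, was 0.93, -0.06, 0.26 and -0.22. The order of the 9 genes also varied. Nlrc5 had the highest ratio on arrays 1 and 2, Tap1 on array 3 and Psmb8 on array 4, and the lowest was Psmb10 on arrays 1 and 2 and Tap2 on arrays 3 and 4. By mean, the order was Nlrc5, Tap1, H2-D1, Psmb8, H2-K1, Psmb9, Tapbp, Tap2 and Psmb10. Within arrays, the mean difference between neighbours was smaller than its SD over the 4 arrays in 7 of the 8 pairs. The exception was Tapbp minus Tap2, with differences of 0.20, 0.06, 0.09 and 0.04 (mean 0.10, SD 0.07), which was not tested.

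The wider pathway was taken from lists chosen for it, and no gene of any list passed after adjustment. Read against the lists, 13913 of all 25679 genes had a mean above 0, and 10.02% were higher and 8.64% lower at an unadjusted p under 0.05. B2m, the light chain of every class I molecule, had ratios of -0.0015, 0.14, 0.19 and 0.29 (mean 0.16; limma adjusted p = 0.470). Erap1, which trims peptides to fit, had 0.60, 0.33, 0.04 and 0.06 (mean 0.26; limma adjusted p = 0.377). Of 8 loading and trimming genes, 6 had a mean above 0 and the median was 0.13. Calr, the chaperone calreticulin, was the gene here with an unadjusted p under 0.05 (-0.12, -0.22, -0.50 and -0.71; limma adjusted p = 0.256).

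For the proteasome, the 11 other core subunits had a median of 0.10, with 8 above 0 and 0 at an unadjusted p under 0.05. Of 6 tested activator and assembly genes, 2 had an unadjusted p under 0.05, both higher. They were Psme3, a nuclear activator (0.70, 0.84, 0.60 and 0.60; mean 0.68; limma adjusted p = 0.108), and Psmg2, an assembly chaperone (0.51, 0.43, 0.53 and 0.47; mean 0.48; limma adjusted p = 0.143). Their 4 arrays lay close together. Psme1, a subunit of the interferon-induced activator, had 1.16, 0.14, 0.31 and -0.52 (mean 0.27; limma adjusted p = 0.625), and no probe was matched to its partner Psme2.

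Nonclassical class I genes present to other receptors or have other tasks. Of 13 tested, 11 had a mean above 0, with a median of 0.22, and 1 had an unadjusted p under 0.05. That gene was H2-Q4, with ratios of -0.42, -0.40, -0.89 and -1.68 (mean -0.85; limma adjusted p = 0.205). It lay on the control side on every array, while H2-K1 and H2-D1 had means above 0. Its probe may likewise bind RNA of related class I genes.

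Among 24 regulators, 17 had a mean above 0, the median was 0.12, and 3 had an unadjusted p under 0.05, all higher, as 10.02% of all genes were. These were Creb1 (mean 0.51; limma adjusted p = 0.145) and Nfya (mean 0.50; limma adjusted p = 0.148), whose proteins bind the X2 and Y boxes, and Socs1 (mean 0.38; limma adjusted p = 0.244), a brake on interferon signalling. Irf1, an activator of Tap1 and Psmb9 downstream of interferon gamma, had -0.17, 0.59, 0.09 and 0.15 (mean 0.16). Its sign differed between arrays. Of 20 interferon-induced genes, 13 had a mean above 0 and the median was 0.04, but by array it was -0.49, 0.35, -0.01 and 0.28. Isg15, a ubiquitin-like protein made under interferon, had -1.28, -0.07, -0.66 and -0.40 (mean -0.60; limma adjusted p = 0.257).

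The class II genes, which present peptides from outside the cell, were the nearest comparison. Of 10 tested, 9 had a mean above 0, with a median of 0.19 and medians of 0.26, 0.16, 0.26 and 0.22 by array. At an unadjusted p under 0.05, 4 were higher and 1 lower, where 10.02% and 8.64% of all genes were. Among the higher were H2-Oa (mean 0.49; limma adjusted p = 0.166), H2-DMa (mean 0.38; limma adjusted p = 0.246) and H2-Ab1 (mean 0.34; limma adjusted p = 0.259). The lower was Ciita, with -0.43, -0.62, -1.11 and -1.57 (mean -0.93; limma adjusted p = 0.165). The means of Nlrc5 and Ciita, the related transactivators of the 2 classes, thus had opposite signs. The Ciita probe was dim, with geometric mean signals of 35 in Cy5 and 66 in Cy3. By array, the lowest signals called above background were 16 to 31 in Cy5 and 21 to 37 in Cy3. Ciita cleared the background in both dyes on all 4 arrays. The difference between the lists was not tested.

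**Figure D4:**
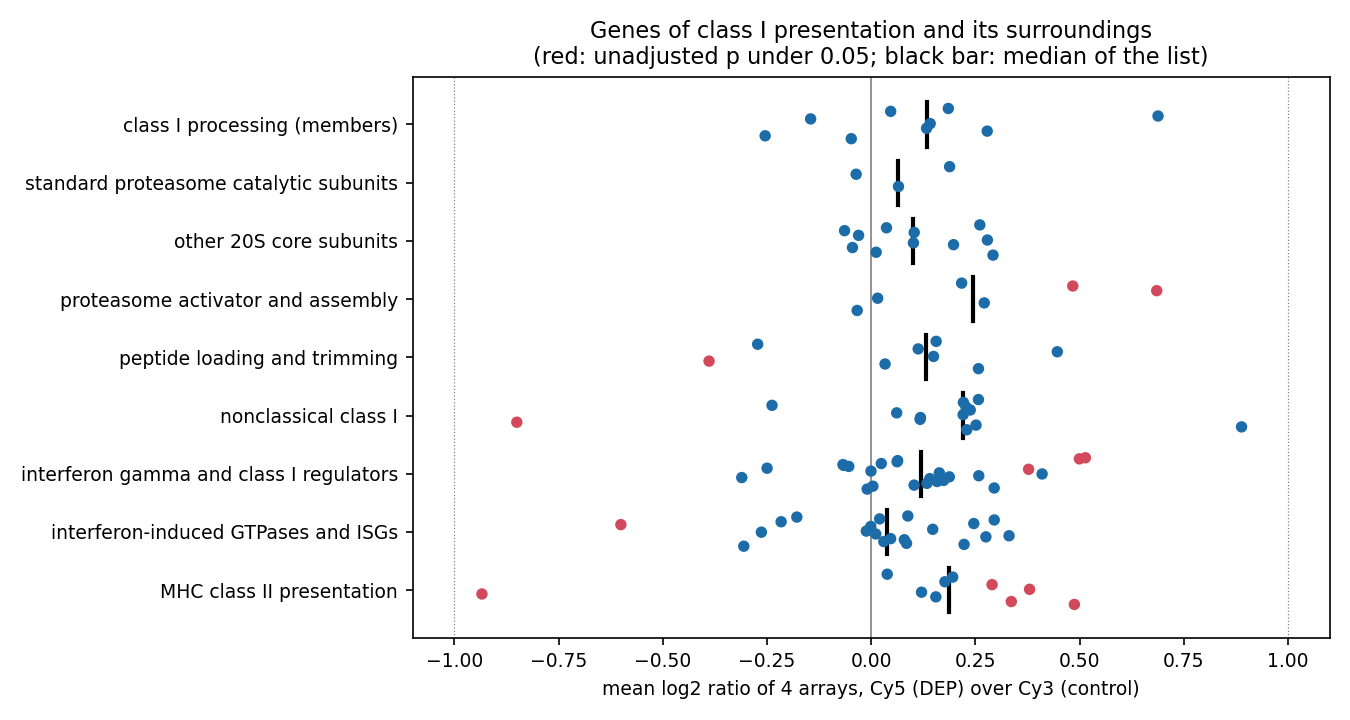
Mean log2 ratio over 4 arrays of each tested gene (points) in the class I processing genes and 8 pathway lists, with the median of each list (black bars) and unadjusted p under 0.05 in red. The median is 0.13 for the 9 genes and 0.22 for 13 nonclassical class I genes, and Ciita and H2-Q4 lie farthest to the left at -0.93 and -0.85.

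Marker lists of other tissues had median ratios spread more widely over the arrays than the median of the 9 genes. Neuronal and cerebellar markers had medians of -2.46, -1.83, -0.35 and 0.31 by array, with 0 of 9 higher and 9 lower by mean. Skeletal muscle markers had -0.72, -0.51, 0.75 and 0.76, and mucosal epithelium markers -0.13, 0.27, -0.31 and -0.42. Endothelial markers had -0.06, 0.12, -0.35 and -0.10. Tap2 and Tapbp were lowest on array 3. Among the marker lists only the endothelial median was lowest there, and Cdh5 of that list was lowest on array 1 (-0.26). The part of tissue makeup in the ratios of the 9 genes was not tested.

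The deposited ratios follow the brightness of a probe little, since their median lay between -0.04 and 0.06 in every decile of genes ordered by signal. With normexp and median centring in place of the deposited processing, the same medians ran from -0.06 in the dimmest decile to 0.62 in the brightest. Against the median of their decile, H2-K1 and H2-D1 were at 0.70 and 0.76 against 0.62, and Psmb8 and Psmb9 at 0.47 and 0.44 against 0.39. Tap1 was at 0.24 against 0.06, and Nlrc5 at 0.69 against 0.20. Tap2, Tapbp and Psmb10 were at 0.25, 0.32 and 0.16 against 0.43. Thus 6 of the 9 genes lay above the median of their decile and 3 below it, with the widest gap for Nlrc5.

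**Figure D5:**
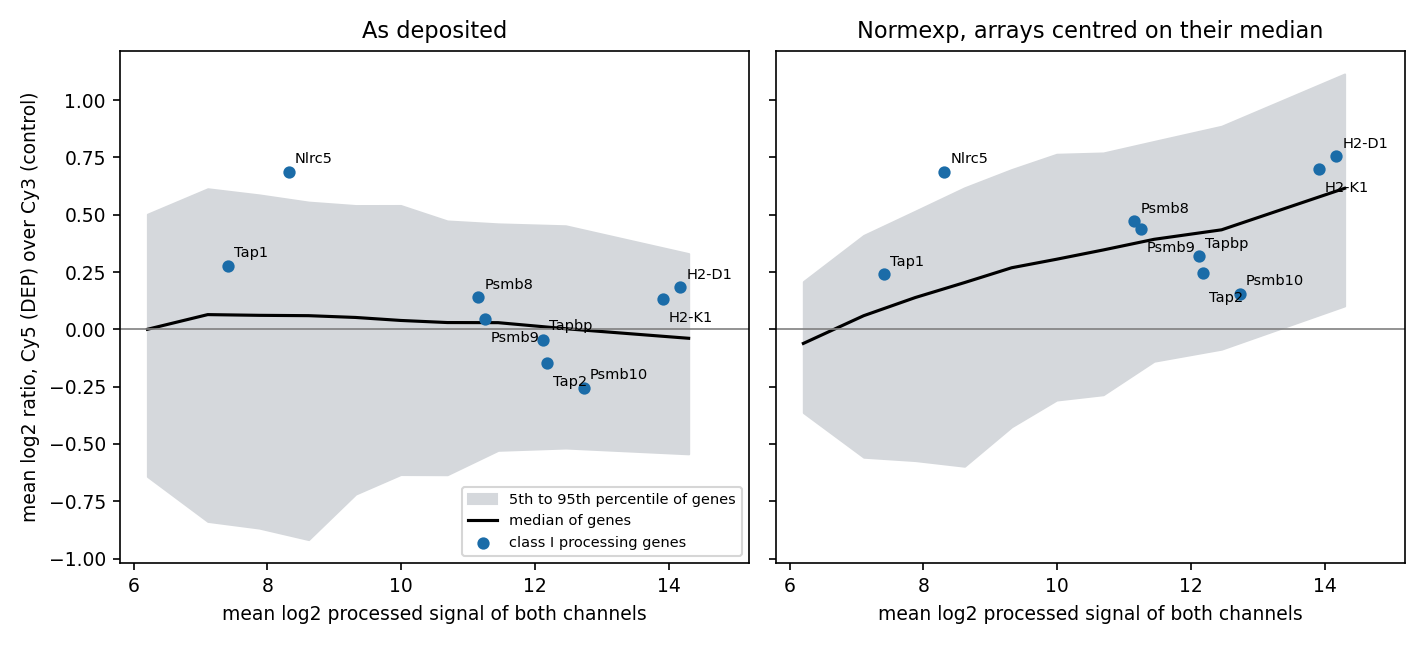
Mean log2 ratio against mean log2 signal of both channels for the 9 genes (points), with the median (line) and the 5th to 95th percentile (grey) of 18349 genes in deciles of signal, as deposited (left) and with normexp and median centring (right). On the right the median line rises from -0.06 to 0.62 and the heavy chains rise with it, to 0.70 and 0.76.

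Channel by channel, levels could be compared for 1 probe across its 8 measurements. The median profile of the 9 genes over 4 arrays and 2 dyes was set against 18340 other genes measured as fully, unnamed targets included. The most alike were Aoah (r = 0.956), the unnamed probe A_55_P1962586 (0.934), 1810010H24Rik (0.932), Polr2e (0.931) and Kcnh4 (0.928). These r values are across 8 channels that share arrays and dyes, are the highest of 18340, and are given as a description. Aoah, an enzyme of myeloid cells that inactivates bacterial lipopolysaccharide, had ratios of 0.32, 0.26, 0.52 and 0.27.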

How the data were processed

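RNA of mouse middle ears was measured on 4 two-colour arrays of 1 group, DEP over control. The authors scanned the arrays and quantified the spots with Agilent Feature Extraction 10.10.1.1, per the labels. The deposited processed signals are intensities, from which the software had taken the background and which it had adjusted for dye bias. The log10 ratio deposited with them sets Cy5 over Cy3 and reads 0 where none was given. The authors' table of log10 ratios served as an alternative.

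Ratios were converted to log2. Control spots, flagged spots (164 to 274 per array) and spots without a ratio (6179 to 8558 of 43020) were left out, and the spots of a probe were averaged. Probes were named through RefSeq (GRCm38.p6), which matched 27655 of 39429, and the build of the array files was not used for coordinates. A probe needed a ratio on 3 arrays, which left 31577, and the brightest probe stood for its gene. Probes without a symbol were grouped by their target name and counted as genes. An intercept was fitted in limma 3.58.1 (R 4.3.3) with lmFit and eBayes, and tested on simulated data. Figures came from matplotlib 3.10.9, and tables from pandas 2.3.3 and numpy 2.4.6 under Python 3.11.15. The number of arrays and the signal over background limit the precision.

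The 9 genes and the lists were chosen with earlier results of these data known. Named besides the 9 genes are set partners (1 of them is not reported here), the list genes with an unadjusted p under 0.05 and 1 sign on all arrays (at most 4 a list), and the 5 most similar profiles. Alternatives were normexp (offset 50) with loess or median centring, the deposited ratio table, filters on dim probes, flagged spots kept, other variance models, the mean of a gene's probes and each array left out.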

Additional observations from a re-analysis of the deposited data

Results flagged for a closer look

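None of the ratios of the 9 genes over the 4 arrays held a value that stood apart from the others by Dixon's test at the 95% level. Of 52 values tested in this way, 2 did, and chance gives about 1 in 20. Both were list medians on array 1. The median log2 ratio of erythroid markers was -1.01 there and 0.20 to 0.44 on the other arrays. The median of bone and cartilage markers was -0.39 there and 0.15 to 0.23 on the others. On the same array Nlrc5, Tap1, H2-K1 and Tapbp had their highest ratios and Psmb8, Psmb9 and Psmb10 their lowest.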

How the results depend on the processing

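The count of members past 2-fold was 0 in all 14 settings, the reported one included. With normexp and median centring, 7 members were higher at an unadjusted p under 0.05 (28.3% of all genes there), 7 were higher on all arrays (31.7%) and 0 lower on all (12.2%), 2 passed after adjustment (H2-K1 and H2-D1), and the median over the members was 0.44. The median of all genes was then 0.12 in place of 0.03, and of the genes past 2-fold 63.6% were higher in Cy5 in place of 35.2%. That share was 17.6% with normexp and loess, and 22.3% with probes above background in both channels. With normexp and loess, 1 member (Psmb10) was lower at an unadjusted p under 0.05 (8.76% of all genes) and 1 was higher on all arrays (13.2%). With both channels above background, with an intensity trend in the variance, or with the mean of a gene's probes, 1 member (Nlrc5) was higher at an unadjusted p under 0.05, as 8.31%, 10.07% and 8.90% of all genes were. The mean over the probes of Nlrc5 takes in its second probe, which cleared the background on 2 arrays in Cy5 and on 1 in Cy3. Signs turned with median centring for Tap2 (0.25), Tapbp (0.32) and Psmb10 (0.16), and without replicate 3 for Tapbp and Psmb9. The cause of these shifts was not tested.

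With 1 replicate left out, the members higher at an unadjusted p under 0.05 numbered 0 to 1 (1, Nlrc5, without replicate 4, as 8.85% of all genes were), those lower on all arrays used 1 to 2 (13.6% to 18.6% of all genes), those higher on all arrays used 2 to 3 (18.3% to 26.0%), and the median over the members was 0.04 (without replicate 4) to 0.13. Tapbp then ranged from -0.11 to 0.033 and Psmb9 from -0.016 to 0.13. Each ratio already pairs the DEP extract of an array with its control extract, so no further block was fitted.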
